A study of Mus musculus with 11 samples.

Results

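Ptch1, Smo, Boc, Sufu, Gli1, Gli2 and Gli3 encode the receptors, the main inhibitor and the transcription factors of the Hedgehog pathway, and their transcripts were followed in the gingival epithelium of adult mice. The genes were taken by name, and 7 of 7 had values among the 19170 genes with values of 55414 listed. All mice were Langerin-DTR males, which carry the diphtheria toxin receptor under the control of langerin, so that the toxin kills langerin-expressing cells, chiefly the Langerhans cells (LCs) of the epithelium. During weaning, 5 mice received PBS and 6 mice received Diphtheria toxin (DT) at weekly intervals, and the epithelium was taken in the eighth week of life, when LCs had populated the gingiva of DT-treated mice again, as described for this model. The comparison therefore asks whether early loss of LCs left a mark on Hedgehog genes in the adult epithelium, after the cells had returned. All mice carried the receptor, so effects of the toxin itself or of losing other langerin-expressing cells cannot be told apart from loss of LCs.

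In the Hedgehog pathway, a ligand such as Sonic hedgehog (Shh) binds the receptor Ptch1, which then stops holding back Smo, the membrane protein that carries the signal inwards at the primary cilium. Active Smo frees the Gli transcription factors from Sufu, their cytoplasmic inhibitor. Gli2 is the main activator, Gli3 acts mainly as a repressor, and Gli1 amplifies the signal and is itself a target gene, as is Ptch1, so that both are widely used as readouts of pathway activity. Boc is a co-receptor that presents the ligand to Ptch1. In oral and other stratified epithelia the pathway takes part in tooth and taste organ development and in the upkeep of progenitor cells.

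Stranded mRNA libraries were sequenced, with totals from 17667564 to 22180195 reads in PBS mice and from 17509328 to 24325513 in DT mice. Values are normalized counts, that is reads per gene after scaling the libraries to a common depth. The 10 keratinocyte markers (Krt5, Krt14, Trp63 and others) made up as much as 11.9% of all counts in a mouse. The 10 fibroblast markers summed to between 1833 and 2213 normalized counts in PBS mice and between 1681 and 2197 in DT mice, mostly from Dcn, and 4 of the 10 had a mean under 10. Gene by gene, their median log2 fold change (DT minus PBS) was −0.29, beside −0.011 over all genes. At an unadjusted limma p under 0.05, 2 of the 10 were lower and 1 higher in DT mice, beside 11.5% of all genes in either direction. After adjustment, 0 of the 10 passed. In bulk tissue, fewer cells of a type and less RNA per cell cannot be told apart.

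The 250 bases upstream of the annotated start of Ptch1 and of Gli3 are shown because these genes had the largest differences between the groups of the 7. The sequences come from RefSeq (GRCm38.p6), where Ptch1 lies on the minus strand (chr13:63565736-63565985) and Gli3 on the plus strand (chr13:15463473-15463722). They are written 5′ to 3′ in the direction of transcription, and capitals mark CpG dinucleotides.
Ptch1: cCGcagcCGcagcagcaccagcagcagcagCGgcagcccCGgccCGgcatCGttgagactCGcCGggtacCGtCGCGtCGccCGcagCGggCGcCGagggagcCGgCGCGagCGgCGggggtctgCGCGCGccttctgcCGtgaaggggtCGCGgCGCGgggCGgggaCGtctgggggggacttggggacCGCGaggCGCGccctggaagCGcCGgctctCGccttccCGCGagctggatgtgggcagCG
Gli3: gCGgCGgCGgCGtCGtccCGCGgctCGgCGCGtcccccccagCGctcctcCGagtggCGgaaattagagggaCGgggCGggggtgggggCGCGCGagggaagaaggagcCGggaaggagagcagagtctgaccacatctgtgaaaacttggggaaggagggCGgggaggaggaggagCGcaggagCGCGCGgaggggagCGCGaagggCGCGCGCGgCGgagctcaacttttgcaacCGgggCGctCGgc
The Ptch1 stretch held 41 CpGs at a GC content of 78.4%, and the Gli3 stretch held 34 CpGs at 72.8%. Those of Gli2, Smo and Sufu held 22, 15 and 8 CpGs, against a median of 6 CpGs and 52.4% GC over all promoter windows. The Gli motif GACCACCCA (TGGGTGGTC on the other strand) was in none of the windows of these 5 genes, which span 250 bases before and 50 bases after the start, and in 83 of 32851 windows of all genes (0.253%). It was also in 0 of the 73 windows of Hedgehog pathway genes. No match says only that these letters are not in this short window.

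Smo, Boc and Sufu transcripts were far more abundant than those of Ptch1 and the Gli factors. Per kilobase of exon, the mean level in PBS mice was 319 ± 19.4 normalized counts (SD, n = 5) for Smo, 164 ± 6.26 for Boc, 106 ± 4.93 for Sufu, 27.8 ± 5.26 for Gli3, 20.8 ± 1.84 for Ptch1, 11.9 ± 0.988 for Gli2 and 10.9 ± 4.80 for Gli1. These levels hold if reads cover whole transcripts, as the kit named in the labels does, whereas the methods describe trimming for a 3′-end kit, for which no division by length applies. On this scale the intervals of 1 SD around the means of Gli3 and Ptch1 overlapped slightly, those of Gli2 and Gli1 overlapped widely, and Smo, Boc and Sufu were each separated from the next gene by more than their SDs together. The co-receptors Gas1 and Cdon were measured on the same scale, Gas1 at 602 and Cdon at 64.4 normalized counts per kilobase. The ligands were close to the limit of detection. Shh had between 0 and 5.66 normalized counts in PBS mice and between 0 and 5.25 in DT mice, and Ihh and Dhh stayed under 4 in every mouse.

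None of the 7 genes passed the test between DT and PBS (limma on log2 values, Benjamini-Hochberg adjusted p under 0.1 over 19170 genes), which 107 genes, or 0.558% of those tested, did (0.313% higher and 0.245% lower in DT mice). At an unadjusted p under 0.05, Ptch1 passed alone of the 7, with the lower level in DT mice, against 11.5% of all genes tested in either direction and 6.19% with DT lower. The log2 fold change was below 0 for 5 of the 7, as it was for 52.7% of all genes. Their median was −0.06, beside −0.011 over all genes. In no member did the groups separate without overlap, which 1.65% of all genes did.

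**Figure D1:**
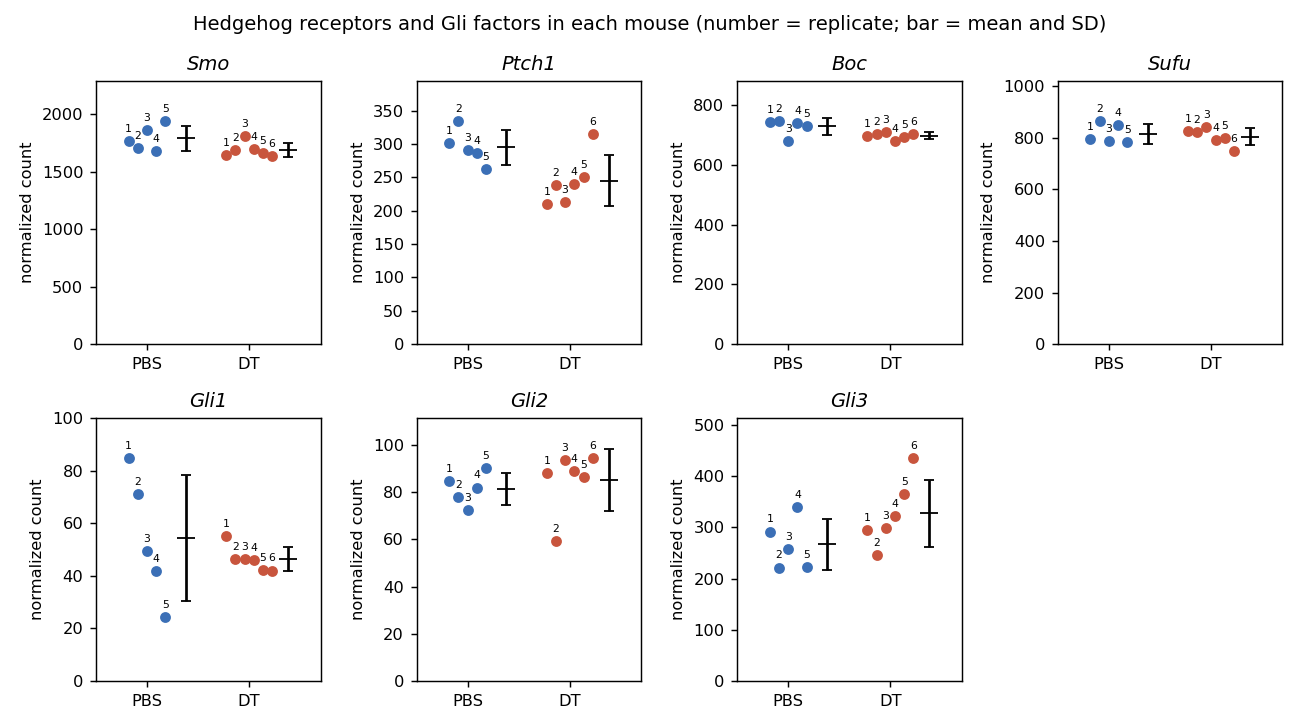
Normalized counts of each gene (vertical axes, starting at 0) in each PBS mouse (blue) and DT mouse (red), numbered by replicate, with the mean and SD of the group in black. Ptch1 lay below the lowest PBS mouse in 5 of 6 DT mice, and Gli1 ranged from 24.1 to 84.9 among PBS mice but from 42.0 to 55.0 among DT mice.

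Ptch1, the ligand receptor and a target gene of the pathway, had the lowest adjusted p of the 7. Its normalized counts were 302, 334, 292, 287 and 262 across PBS 1 to 5 and 210, 239, 214, 240, 251 and 315 across DT 1 to 6. The mouse DT 6 lay within the PBS range, and the other 5 DT mice lay below all PBS mice. The log2 fold change was −0.28 (SE 0.0995, 95% interval −0.49 to −0.068), with a limma adjusted p of 0.289 and a two-sided exact permutation p of 0.0390, the smallest that 5 against 6 mice allow being 0.00216. The exact p is not adjusted for the 7 genes tested this way, and the limma p before adjustment was 0.0130. Without DT 6 the log2 fold change was −0.35 (limma adjusted p = 0.183).

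Smo, the signal carrier at the membrane, was the most abundant of the 7 and varied little. It had 1765, 1703, 1865, 1684 and 1939 normalized counts across PBS 1 to 5, and in the DT mice the lowest, median and highest were 1634, 1673 and 1807. The groups overlapped, and 5 of 6 DT mice lay below the PBS mean. Its log2 fold change was −0.085 (SE 0.0499, 95% interval −0.19 to 0.021, limma adjusted p = 0.539).

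Boc, the co-receptor, had 745, 746, 680, 741 and 731 normalized counts across PBS 1 to 5 and 698, 702, 711, 680, 694 and 703 across DT 1 to 6. All 6 DT mice lay under the PBS mean of 729 ± 27.9 (SD, n = 5), but PBS 3 was at the level of the lowest DT mouse. The fitted log2 fold change was −0.06 (95% interval −0.16 to 0.039). The limma p was 0.211 before adjustment and 0.659 after it, whereas the exact permutation p for this gene alone, not adjusted, was 0.0346. The coefficient of variation among DT mice was 1.53%, under the 3.76% that counting error alone gives at this depth, and 99.8% of the 4319 genes of like level (within a factor of 2 of its mean) had at least its SD among DT mice. The test by limma draws such a small variance towards that of other genes of like level, and the exact test does not.

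Sufu, the inhibitor, was the most even between the groups. Its mean was 815 ± 37.9 normalized counts in PBS mice (SD, n = 5) and 804 ± 32.6 in DT mice (SD, n = 6). PBS mice ranged from 782 to 864 and DT mice from 748 to 840, so the ranges coincided over most of their length. The log2 fold change was −0.02, with a 95% interval from −0.13 to 0.089 (limma adjusted p = 0.923).

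Gli1, the amplifier and target gene, had a similar mean in the groups but a different range. Its normalized counts were 84.9, 70.9, 49.3, 41.9 and 24.1 across PBS 1 to 5, and 55.0, 46.5, 46.3, 46.2, 42.2 and 42.0 across DT 1 to 6. All DT mice fell inside the PBS range, with PBS 1 and PBS 2 above them, PBS 5 well below them and PBS 4 just below the lowest. Between the groups, the log2 fold change was −0.10 (SE 0.245, 95% interval −0.62 to 0.42), with a limma adjusted p of 0.913 and an exact permutation p of 0.792. It turned to 0.09 without PBS 1 and to 0.02 without PBS 2, and was −0.36 without PBS 5 (limma adjusted p = 0.411), so no direction can be given for Gli1. In annotation GENCODE M21, Gli1 overlaps Arhgap9 and the antisense gene Gm47200 on the opposite strand, and the strand setting of the counting is not given in the sources used here, so that reads from these genes may be included.

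Gli2, the main activator, had 84.9, 77.7, 72.4, 82.0 and 90.2 normalized counts across PBS 1 to 5 and 88.3, 59.1, 93.7, 89.1, 86.3 and 94.5 across DT 1 to 6. Apart from DT 2, which was the lowest of all mice, DT mice lay in the upper PBS range or just above it. Its log2 fold change was 0.05 (95% interval −0.23 to 0.33, limma adjusted p = 0.919), and 0.15 without DT 2 (limma adjusted p = 0.636).

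Gli3, which acts mainly as a repressor, had the largest value above 0. Its normalized counts were 292, 222, 257, 341 and 222 across PBS 1 to 5 and 296, 246, 298, 323, 366 and 436 across DT 1 to 6. The ranges overlapped, although 5 of 6 DT mice lay above the PBS mean of 267 ± 50.4 (SD, n = 5) and DT 5 and DT 6 lay above all PBS mice. The log2 fold change was 0.29 (SE 0.138, 95% interval −0.0013 to 0.58), with a limma adjusted p of 0.436 and an exact permutation p of 0.121. Gli3 overlaps the pseudogene Gm48343 on the same strand and Gm6556 on the opposite strand. Same-strand overlaps were also annotated for Ptch1 (A930032L01Rik), Smo (the pseudogene Gm13717) and Boc (Mir3081), and an opposite-strand overlap for Gli2 (Mir6346). Their effect on the counts was not tested.

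**Figure D2:**
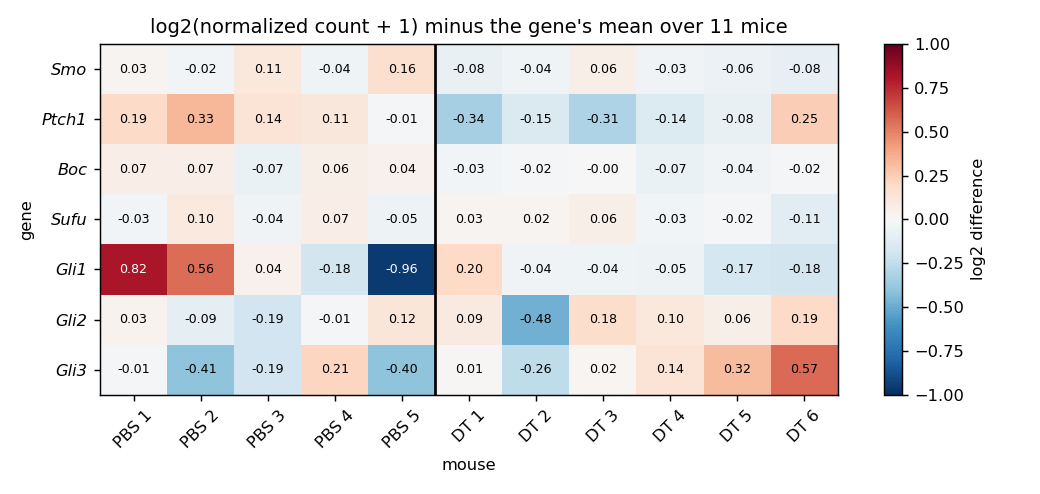
Difference of each mouse (columns) from the gene's mean over 11 mice on the log2(normalized count + 1) scale, for each gene (rows), with red above and blue below the mean and the value printed in each cell. Gli1 ran from 0.82 in PBS 1 to −0.96 in PBS 5, while the entries of Smo, Boc and Sufu stayed between −0.11 and 0.16.

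The spread among PBS mice differed between the genes. On the log2 scale, the SD of Gli1 among PBS mice was 0.69, beside a median of 0.29 for the 2008 genes of like level, and 7.82% of those had at least its SD. Its coefficient of variation was 44.2% in PBS mice, beyond the 15.01% of counting error, and 10.2% in DT mice, within the 14.6% of counting error. The highest PBS mouse had 3.52 times the Gli1 of the lowest, and the highest DT mouse 1.31 times. These Gli1 values rest on 23 to 75 reads per mouse. Whether the spread differed between the groups was not tested. For 64.5% of all genes the SD was larger among PBS mice than among DT mice, and this was so for 4 of the 7 Hedgehog genes.

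Of the other Gli factors, Gli2 had an SD of 0.12 on the log2 scale among PBS mice, with a coefficient of variation of 8.34% that lay under the 11.2% of counting error. Gli3 varied beyond counting error in both groups, with coefficients of variation of 18.9% in PBS mice and 20.1% in DT mice beside counting errors of 6.25% and 5.58%. Its SD among DT mice was reached by 3.18% of the 3958 genes of like level. Ptch1 had a coefficient of variation of 8.86% among PBS mice and 15.5% among DT mice, beside counting errors of 5.88% and 6.44%.

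**Figure D3:**
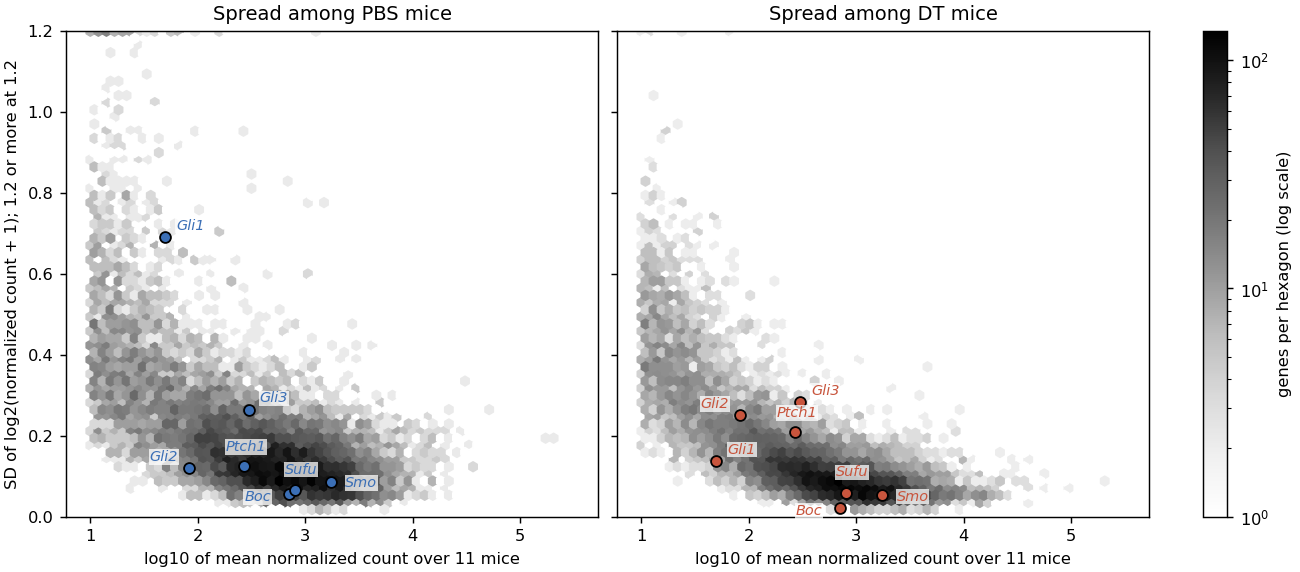
SD among PBS mice (left) and DT mice (right) of log2(normalized count + 1) against the log10 mean normalized count over 11 mice, with the 7 genes as coloured points over the density of the 13477 genes that averaged 10 or more (grey, log scale). Gli1 sits at 0.69 among PBS mice and at 0.14 among DT mice, while Boc lies at the lower edge of the DT panel.

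The sums of cell type markers did not run in the order of Gli1 across PBS mice. In PBS 1 to 5, in that order of naming, the fibroblast markers summed to 1989, 2120, 2213, 1833 and 1977 normalized counts. The 6 leukocyte markers summed to 573, 627, 1379, 524 and 1626 and the 6 LC markers to 2105, 2265, 4129, 1815 and 3360, so that PBS 3 and PBS 5 stood out in both. Among DT mice the leukocyte sum ranged from 480 to 1925 and the LC sum from 1388 to 2566. The highest leukocyte sum, in DT 5, came mostly from S100a8, a gene of neutrophils that stressed keratinocytes also express, at 1691 normalized counts (983 in PBS 3 and 1297 in PBS 5), while Ptprc, the pan-leukocyte marker CD45, was at 37.3 in that mouse. Their part in the values of the Hedgehog genes was not tested.

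Gli1 and Ptch1, both readouts of Gli activity, were also compared with each other across mice. No adjusted p was under 0.05, the threshold for these correlations, whereas 0.1 was used for DT against PBS. Over all 11 mice Pearson's r of the log2 values was 0.265 (permutation p = 0.443, adjusted 0.591) and Spearman's rho was 0.0818 (permutation p = 0.819, adjusted 0.819). Without PBS 1 and PBS 5, the mice farthest from the median of Gli1, r was 0.223. Within the 6 DT mice r was −0.75 (exact permutation p = 0.113, Benjamini-Hochberg adjusted over the 4 p-values 0.225) and rho was −0.94 (exact permutation p = 0.0167, adjusted 0.0667). Without DT 1 and DT 6 the 4 DT mice left gave r = −0.62. No coefficient was computed for the 5 PBS mice, but there the relation ran the other way, since Gli1 and Ptch1 ranked the mice alike except that PBS 1 and PBS 2 changed places. The range of Gli1 in DT mice, over which the DT coefficients were taken, was within its counting error.

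**Figure D4:**
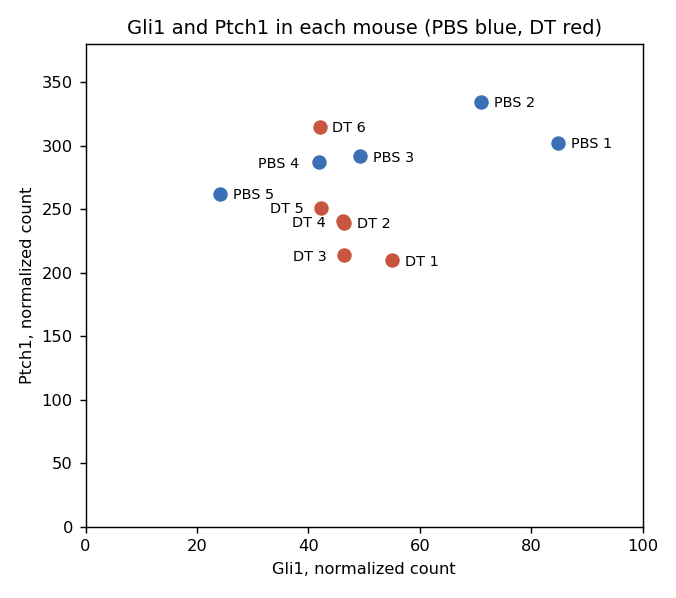
Normalized count of Ptch1 (vertical) against that of Gli1 (horizontal) in each mouse, PBS in blue and DT in red, with both axes starting at 0. PBS 1 and PBS 2 combine the highest Gli1 with Ptch1 above 300, and DT 6 combines a Gli1 of 42.0 with a Ptch1 of 315.

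Genes around these 7 in the pathway were read from lists of ligands, receptors, signal transducers, cilium genes and target genes. Of 99 listed genes 91 had values, and 0 of these passed the test (limma adjusted p under 0.1). At an unadjusted p under 0.05, 10 of the 91 were lower and 2 higher in DT mice, beside 6.19% of all genes with DT lower and 11.5% in either direction. The log2 fold change was below 0 in 55 of the 91, beside 52.7% of all genes. The smallest adjusted p was 0.192, for Cdk6.

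Among ligand genes, 9 of 9 were measured. At an unadjusted p under 0.05, which 11.5% of all genes reached in either direction, 1 of the 9 passed. This was Disp1, which releases the lipid-anchored ligand from the cells that make it. It had 199, 182, 165, 178 and 164 normalized counts across PBS 1 to 5 and between 129 and 161 in DT mice, without overlap, as in 0.751% of all genes with DT lower. Its log2 fold change was −0.24 (SE 0.0871, limma adjusted p = 0.291, exact permutation p = 0.00433). Of the rest, Hhat and Scube2 had means above 10 and log2 fold changes of 0.11 and −0.11, and Scube1, Scube3, Disp2 and the 3 ligands had means below 10.

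Among receptors, 7 of 8 were measured, with no value for Hhip. Cdon, a co-receptor of the same family as Boc, had a mean of 497 ± 37.1 normalized counts in PBS mice (SD, n = 5) and 451 ± 26.4 in DT mice (SD, n = 6). Its log2 fold change was −0.14 (SE 0.0645, limma adjusted p = 0.427). Gas1, the third of the co-receptors, was at 0.11 (SE 0.0890, limma adjusted p = 0.685). Lrp2, an endocytic receptor, stayed under 4 normalized counts in every mouse.

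Of 21 signal transducers and Gli regulators, all measured, 2 were lower and 2 were higher in DT mice at an unadjusted p under 0.05. Over all genes the share was 6.19% with DT lower and 11.5% in either direction. The median log2 fold change of the 21 was −0.02. Gpr161, a ciliary receptor that holds the pathway back, ranged from 191 to 222 normalized counts in PBS mice and from 171 to 202 in DT mice (log2 fold change −0.21, limma adjusted p = 0.301). Evc, which acts with Smo at the cilium, was at −0.21 (limma adjusted p = 0.335). Numb, an adaptor in the turnover of Gli1, ranged from 1442 to 1601 in PBS mice and from 1602 to 1736 in DT mice, without overlap but with a gap under 2 counts (log2 fold change 0.13, limma adjusted p = 0.289). Csnk1a1, a kinase with many substrates including Gli proteins, was at 0.12 and did not overlap either (limma adjusted p = 0.330), whereas 0.902% of all genes did so with DT higher.

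Of 14 genes of the primary cilium, all measured, 1 had an unadjusted p under 0.05, beside 11.5% of all genes in either direction. This gene was Tctn1, which encodes a protein of the ciliary transition zone. It had 214 ± 51.3 normalized counts in PBS mice (SD, n = 5) and 164 ± 29.2 in DT mice (SD, n = 6), with a log2 fold change of −0.36 (SE 0.159, limma adjusted p = 0.395). The next by p was Ift57, a component of ciliary transport, at 0.14 (limma adjusted p = 0.663). The median of the cilium genes was 0.0054 on the log2 scale.

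Of 16 target genes of Gli factors, 12 were measured, with no value for Hhip, Foxf1, Foxl1 and Snai1. Their log2 fold change was below 0 in 11 of 12, against 52.7% of all genes, with a median of −0.13, beside −0.011 over all genes, and 0 of 12 passed the test. Cdk6, a cell cycle kinase, had 878, 751, 854, 910 and 785 normalized counts across PBS 1 to 5 and 809, 711, 631, 657, 674 and 723 across DT 1 to 6. All DT mice but DT 1 lay below the lowest PBS mouse (log2 fold change −0.25, SE 0.0702, limma adjusted p = 0.192, exact permutation p = 0.0130). Foxm1, a transcription factor of dividing cells, was at −0.17 (limma adjusted p = 0.408). Sox9 was at −0.19 and Bcl2 at −0.23, with limma adjusted p-values of 0.479 and 0.491. Ccnd2, Bmi1 and Ccnd1 were at −0.10, −0.10 and −0.06, and Mycn and Foxf2 had means below 10. These targets have other regulators in epithelium too, and their list includes Ptch1 and Gli1.

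A broader list of 36 genes, written in the style of a hallmark collection, had 32 measured genes with a median log2 fold change of −0.04. At an unadjusted p under 0.05, 4 of the 32 were lower in DT mice, beside 6.19% of all genes, and 0 higher. Beside Cdk6 and Ptch1 these were Dpysl2, a regulator of microtubules, at −0.54 with no overlap between the groups, as in 0.751% of all genes (limma adjusted p = 0.262), and Vegfa, the angiogenic growth factor, at −0.22 (limma adjusted p = 0.420).

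**Figure D5:**
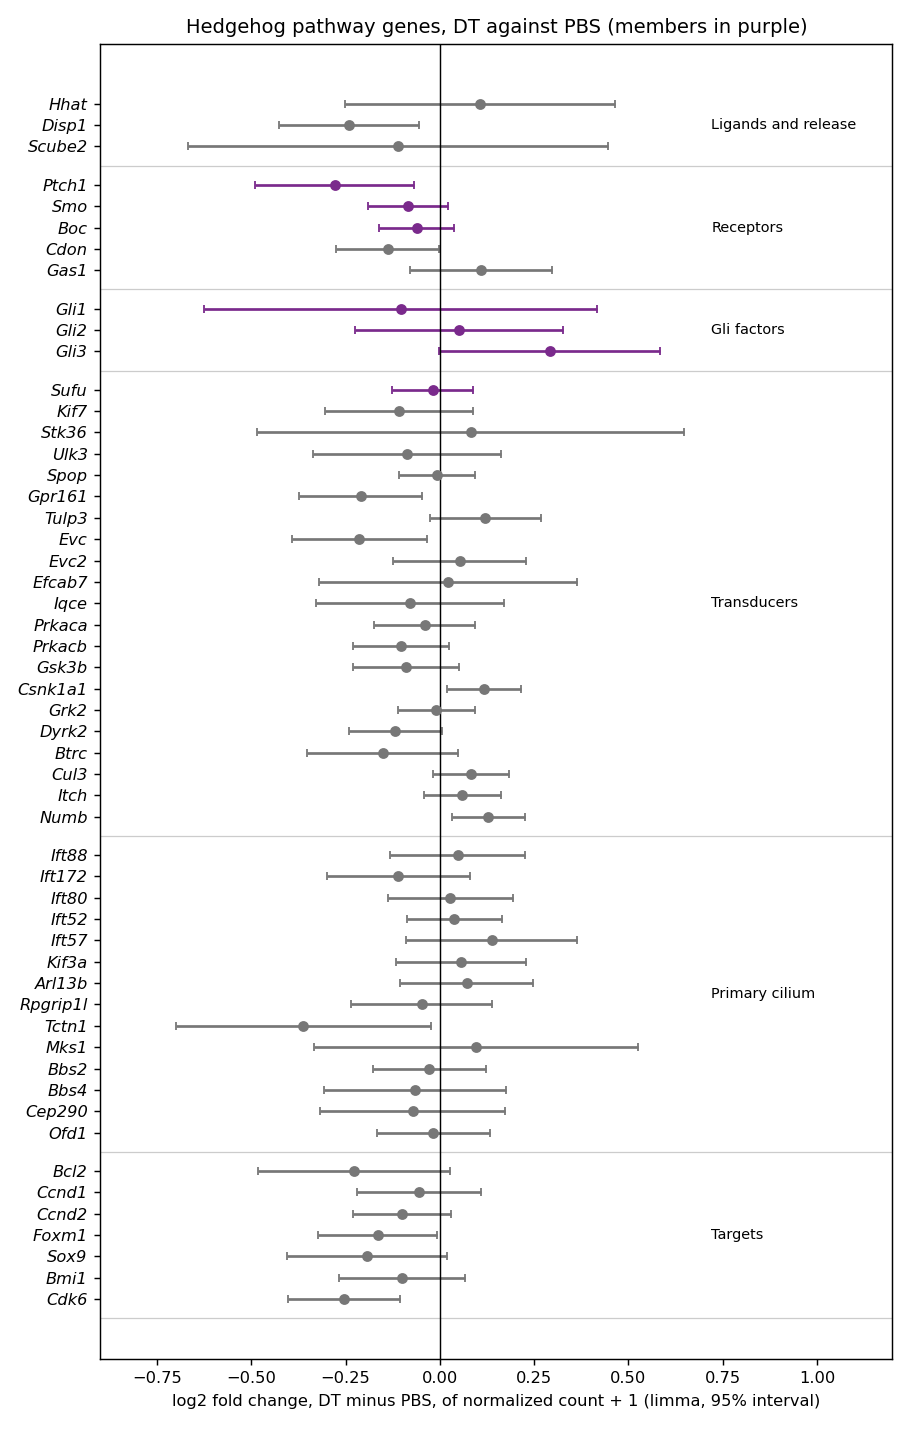
Log2 fold change of DT against PBS with its 95% interval from limma (horizontal axis) for each pathway gene that averaged 10 normalized counts or more, grouped by role, the 7 Hedgehog genes in purple. The interval of Ptch1 runs from −0.49 to −0.068, that of Gli1 from −0.62 to 0.42, and the estimates of the 7 further targets all lie left of 0.

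The genes whose values followed each member most closely were ranked by Pearson's r of the log2 values over the 11 mice among 13477 genes that averaged 10 or more. The coefficients are given as a description, since each gene was chosen as the closest of many. They were Tbc1d31 (r = 0.934), Gm11613 and Kank3 for Ptch1. For Smo they were Pcif1 (r = 0.927), Fam131a and Anapc15. For Boc they were Ccl25 (r = 0.944), Zc3h6 and Gm15912. Sufu was followed by Zfyve16 (r = 0.917), Kif26a and Kctd18. Gli1 was followed by Tmed7 (r = 0.937), Lypla1 and Zfp28, and Gli2 by Aldh1b1 (r = 0.887), Taf5 and 2810408A11Rik. For Gli3 they were Fam214a (r = 0.942), Tob1 and Itga6. None of the 7 was among the leading genes of another.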

How the data were processed

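RNA from the gingival epithelium of 11 mice (5 PBS, 6 DT) was sequenced from stranded mRNA libraries. The authors aligned the reads with TopHat2 2.1.1, counted them per gene with HTSeq 2.01 and divided them by DESeq2 1.36.0 size factors, per the submitters' processing notes, which also name cutadapt 2.10 and GRCm39. The paper's methods instead name GRCm38 and trimming for a 3′-end kit, in which counts would not scale with transcript length. Positions of the counted genes are therefore not given (promoter windows are those of RefSeq, GRCm38.p6), and levels per kilobase hold only for whole-transcript libraries. Each deposited value is a normalized count, and all are whole multiples of a single read within 0.1, which gave the depth. In some libraries that recovery is not beyond doubt, as told in the last section, and their depths and read numbers share the doubt.

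Values were tested as log2(normalized count + 1) with limma 3.58.1 (trend, R 4.3.3), two-sided, without covariates, and p-values were adjusted over 19170 genes with the study's threshold of 0.1. Fold changes on this scale understate those of low counts. P-values for DT against PBS judge the difference between the group means against the variation among these mice. The library numbers of all PBS mice precede those of DT mice, so library order and group cannot be told apart. Single genes were also tested by exact permutation over 462 splits. On data simulated with the same dispersion for every gene, 199 of 200 well-expressed genes changed 2-fold were recovered, with 21 unchanged genes called. Differences of the members were smaller than 2-fold, so the simulation does not give the power for them. Exon lengths came from GENCODE M21, where 53 tested identifiers are missing.

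The members and lists were chosen with earlier results of these data known. Named were all members, the measured ligands, receptors and targets (except an item not reported here), in other lists the 2 genes of lowest p, and for each member the 3 genes most like it. Genes beyond this with an unadjusted p under 0.05 were named after their values were seen. Alternatives varied the pseudocount, filter, scaling, weights, replicate block and mice.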

Additional observations from a re-analysis of the deposited data

Results flagged for a closer look

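In 4 of the 14 sets of mice tested (7 genes in 2 groups), a mouse stood apart from the rest of its group by more than Dixon's 95% limit for the gap to the nearest mouse over the range, which chance alone exceeds in about 1 in 20 groups. Gli2 was at 59.1 normalized counts in DT 2, with a gap of 0.769 of the range, while the other 5 DT mice were between 86.3 and 94.5. Boc was at 680 in PBS 3, with a gap of 0.774 of the range. The coefficient of variation of Boc among PBS mice was 3.82%, close to the 3.73% of counting error. Smo was at 1807 in DT 3 (gap 0.659), within the PBS range. Gli1 was at 55.0 in DT 1 (gap 0.657), a difference that lies within its counting error.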

How the results depend on the processing

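None of the 7 genes, and 0 of the 91 pathway genes, passed an adjusted p of 0.1 in any of 18 other settings, the smallest adjusted p being 0.183 for a member (Ptch1 without DT 6) and 0.114 for a pathway gene. Ptch1, Smo and Boc stayed below 0 and Gli2 and Gli3 above 0 in all 18. Gli1 turned to 0.086 without PBS 1 and 0.02 without PBS 2, in a range from −0.36 to 0.086 as mice were left out. Sufu turned to 0.0020 without PBS 2 and 0.0013 without DT 6, with and without the replicate block. Its range was −0.034 to 0.0020 as mice were left out and −0.045 to 0.0020 over the 18 settings. The causes were not tested. Over all genes, 60 were higher and 47 lower. Leaving out each mouse gave 19 to 155 higher and 8 to 104 lower, with the fewest in all without DT 5 (27) and the most without PBS 5 (259). Array weights gave 110 higher and 79 lower, and a replicate block on the title numbers of 5 pairs 24 and 12. The labels name no pairing, and PBS 5, set beside DT 5 in the block, is numbered 6 in its library name. Correlations within these pairs ran from −0.233 to 0.324 and cannot decide whether mice were paired. Upper-quartile scaling gave 41 higher and 51 lower, 44.6% higher against 56.1%. The pseudocounts, the filter and TMM scaling moved no count by over 1.5 times. The correlation of Gli1 with Ptch1 lay between 0.237 and 0.284 with the 2 pseudocounts and 2 scalings, the settings in which it was computed. The planned tests of recovered reads with edgeR and DESeq2 were not run, because whole reads could not be recovered beyond doubt in 2 libraries whose value per read lies close to 1. Gli1 and Gli2 rest on at most 108 reads per mouse. For Gli1, whose spread among PBS mice exceeded counting error, the interval of the log2 fold change was wide (−0.62 to 0.42). It gives the changes that remain compatible with these values, in either direction, and is not a limit of detection. The smallest change of Gli1 that these mice could show was not tested.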
